A study of Homo sapiens with 8 samples.

Results

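The replication-dependent histone genes of chromosomes 1 and 6 were examined for open chromatin in NCI-H295R cells, a line long in use that came from a human adrenocortical carcinoma. Members were the protein-coding genes on these chromosomes, in the RefSeq annotation of GRCh38.p14, named H1-1 to H1-6 or with symbols starting H2AC, H2BC, H3C or H4C. The rule found 68 genes among 19974 protein-coding genes, 55 on chromosome 6 and 13 on chromosome 1. They comprised 6 linker histone H1 genes, 17 H2A genes, 18 H2B genes, 13 H3 genes and 14 H4 genes.

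These genes encode the bulk of the histones that package newly copied DNA, and they are transcribed mainly while DNA is replicated. Most are short and without introns, and their messages typically end in a stem-loop bound by SLBP in place of a poly(A) tail. NPAT drives their transcription in nuclear bodies that gather at the gene clusters. H2A and H2B genes often sit head to head and share 1 control region between their starts.

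ATAC-seq, which maps open chromatin by the sites where the transposase Tn5 inserts, was made from 4 groups of 2 libraries that the labels call biological replicates. The vehicle group received DMSO for 96 h. The EZH2i group received EPZ-6438, an inhibitor of the Polycomb methyltransferase EZH2, at 62 µM for 96 h, and the CBPi group received PRI-724, labelled a CBP inhibitor, at 26 µM for 96 h, both described as IC-50 doses. The FSK group received vehicle for 48 h and then forskolin, an activator of adenylyl cyclase, at 10 µM for 48 h. All groups are 1 cell line, so a comparison covers these cells only, and FSK differed from the others in exposure time as well as agent.

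The files give 1 peak list per group. Spread between replicates is therefore not known for any value here, and groups were compared without a test. Read depth is unknown. The lists held 61016 peaks (vehicle), 41086 (EZH2i), 47161 (CBPi) and 51095 (FSK). The authors' signal for a peak is the area under it. Because areas cannot be compared between lists, each peak was given its area percentile, the percent of its own list's peaks with a smaller area. A peak within 1 kb of either end of a gene is called that gene's peak. Some members have long annotated spans, among them H2BC18 (29682 bp), H4C15 (16753 bp) and H2BC5 (13229 bp), so a peak at their far end lies away from the start. Of 8 adrenocortical genes, 6 had a peak in the vehicle list, among them NR5A1 (percentile 93.7), STAR and CYP17A1. HSD3B2 and CYP21A2 had none there. PTPRC (leukocytes), PECAM1 (endothelium) and TH (chromaffin cells) had no peak in any list, whereas COL1A1, KDR, SPI1 and CHGA had one in every list.

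Most histone genes had open chromatin at a gene end, and nearly the same genes had it in every list. In the vehicle list 54 of 68 members had a peak (79.4%, exact 95% interval 67.9 to 88.3), against 67.6% of all protein-coding genes. The EZH2i list had a peak at 53 members (77.9% against 65.2% of all genes), the CBPi list at 54 (79.4% against 67.3%) and the FSK list at 52 (76.5% against 65.2%). These intervals treat genes as independent and cover counting error only, and 26 of the 59 distinct member peaks of the vehicle list lay at 2 or 3 members at once.

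By family, the vehicle list had a peak at 17 of 18 H2B genes, 14 of 17 H2A genes, 5 of 6 H1 genes, 10 of 13 H3 genes and 8 of 14 H4 genes. H2B and H2A make the outer dimers of the nucleosome, H3 and H4 its central tetramer, and H1 binds the linker DNA. Peaks were thus found at the largest share of H2B genes and the smallest share of H4 genes. The H4 genes without a peak include H4C11, H4C12, H4C14 and H4C15, which have near-identical promoters and whose state is uncertain, as described below. The same holds for H2AC18 and H2AC19 among H2A genes and for H3C14 and H3C15 among H3 genes.

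The other 14 members had no peak in any list. They were H4C14, H3C14, H2AC18, H4C15, H2AC19 and H3C15 in the chromosome 1 cluster, and H2AC1, H2BC1, H1-6, H4C7, H4C11, H4C12, H3C11 and H4C13 on chromosome 6. H2AC1, H2BC1 and H1-6 encode histones known from the testis. Short genes outside the member list had far fewer peaks than the histone genes: of 464 other protein-coding genes of up to 1 kb, 51 (11%) had a vehicle peak, 151 of the 464 being olfactory receptor genes with 1 peak between them and the other 313 having 50.

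**Figure D1:**
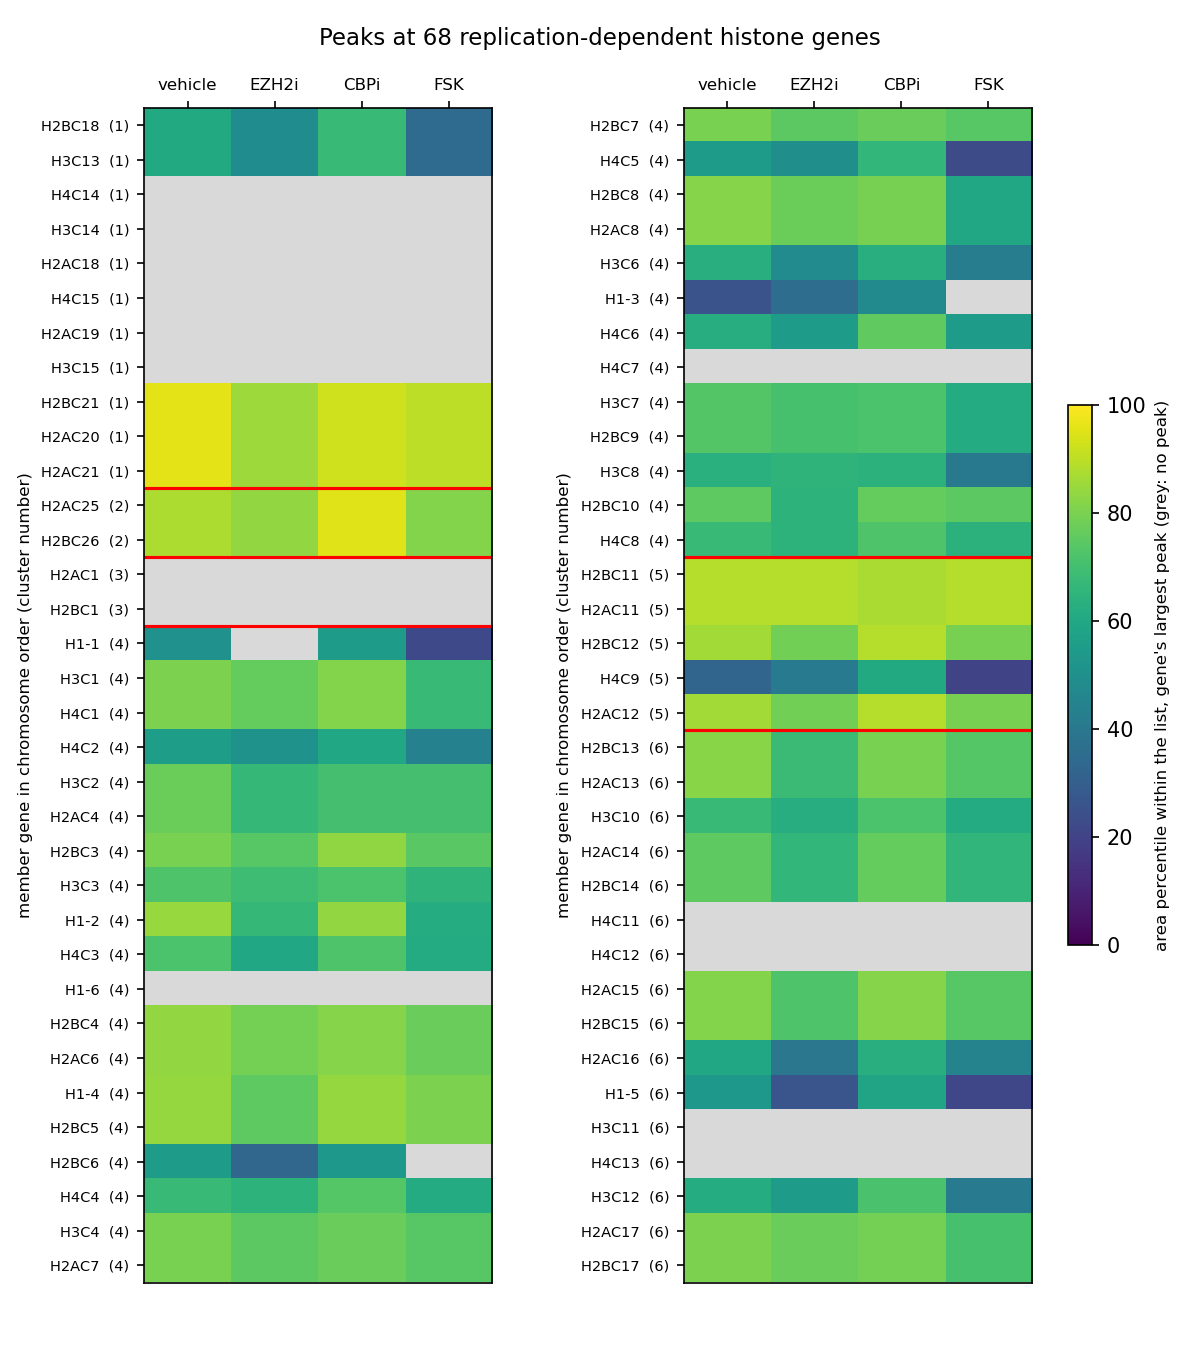
Area percentile (colour, 0 to 100) of the largest peak at each of the 68 histone genes (rows, in chromosome order with the cluster number in brackets) in the 4 lists (columns), with grey for no peak and red lines between clusters. The 14 genes without a peak are grey across all 4 columns, H1-1 is grey with EZH2i only, and H1-3 and H2BC6 are grey with FSK only.

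Whether a gene had a peak at all differed between lists at 3 of the 68 members. With EZH2i 1 of 54 members no longer had one (4.6% of all genes with a vehicle peak), with CBPi 0 (2.35%) and with FSK 2 (4.94%). None of the 14 members without a vehicle peak had one with EZH2i (2.09% of such genes overall), CBPi (3.99%) or FSK (2.89%). These are counts of 0 to 2, too few to set apart from the shares of all genes, and they moved with the definition of a peak. Members lost with FSK were 4 with a window of 500 bp and 6 among peaks of area 400 or more, and with EZH2i they were 3 among the latter. Members gained were 1 with CBPi and 1 with FSK by start site only, and 2 with EZH2i and 2 with CBPi at area 400 or more. Areas cannot be compared between lists, so the losses and gains at that cut may reflect the scale of a list alone.

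H1-1, H1-3 and H2BC6 were the members whose presence differed between lists. H2BC6 had a peak over its start in vehicle (percentile 55.3), EZH2i (33.0) and CBPi (53.5), and none with FSK. H1-3 had the lowest vehicle value of any member with a peak, percentile 25.5 and 408 bp, against 35.9 and 543 bp with EZH2i and 47.5 with CBPi, whose peak over the start was 585 bp wide. It had no peak with FSK. H1-1 had only a peak beyond its 3′ end in vehicle, with a summit 1228 bp from the start, and none with EZH2i. In the CBPi and FSK lists a second peak lay over the start of H1-1, 428 bp and 388 bp wide, where the vehicle list had none. Counted at start sites alone, H1-1 was therefore gained with CBPi and with FSK, and it was no longer lost with EZH2i.

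A larger share of chromosome 6 than of chromosome 1 members had a peak. In the vehicle list 47 of 55 members on chromosome 6 (85.5%, exact 95% interval 73.3 to 93.5) and 7 of 13 on chromosome 1 (53.8%, 25.1 to 80.8) had one. The chromosome 1 members without a peak were H4C14, H4C15, H3C14, H3C15, H2AC18 and H2AC19, which form pairs with the same promoter sequence. They are all of that chromosome's members without a peak, so a comparison that leaves them out has 7 of 7 by construction and says nothing of the chromosomes. The chromosome 6 members without a peak include a near-identical pair too, H4C11 and H4C12.

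Absence of a peak went with near-identical sequence. RefSeq promoter windows, from 250 bases before to 50 after the start, were at hand for 63 of 68 members. H4C14 and H4C15 had the same 300 bases, and H3C14 with H3C15 and H2AC18 with H2AC19 were 100.0% alike after a shift of up to 20 bases. H4C11 and H4C12 on chromosome 6 were 98.3% alike, differing at 5 positions counted from 1 at the 5′ end of the H4C11 window: G62A, T69A, A75G, C119T and G246T. These 8 members were the only ones with a partner at 95% identity or more, and 0 of the 8 had a vehicle peak, against 50 of the other 55. H2AC13 and H2AC14, at 84.0% the next most alike, both had a peak. Over all genes with a promoter in the table, 1 of the 100 whose first window was identical to that of a gene elsewhere had a vehicle peak (1.0%), against 70.6% of the other 15713. How the authors treated reads that align equally well to more than 1 place is not given in the sources used here, so the state of these 8 genes is uncertain, and the part of read alignment in their missing peaks was not tested. The other members without a peak that had a promoter window (H2AC1, H2BC1, H1-6, H4C7 and H4C13) had no partner above 36.2% identity.

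The promoters of 6 members show what these members share and where they part. H2BC21 had the highest vehicle value among members, H1-3 the lowest of the members' largest peaks, H4C5 one of the largest differences with FSK, and H2BC1, H4C14 and H4C11 had no peak. All are RefSeq sequences of GRCh38.p14, read 5′ to 3′ on the gene's strand, with the start at the base after the first 250. Capitals mark, on either strand, the octamer ATTTGCAT of H2B promoters and the H1 box AAACACA of H1 promoters. They also mark TATAAA, the letters of the TATA box, and the letters CCAAT. In the H4 genes they mark the letters GGTCCG and TATAAA. The TTTATA in H2BC21 and H2BC1 is TATAAA on the other strand, at -212 and -189 bases from the start. The windows lie at chr1:149886633-149886932, minus strand (H2BC21), chr6:26234938-26235237, minus strand (H1-3), chr6:26204360-26204659, plus strand (H4C5), chr6:25726527-25726826, plus strand (H2BC1), chr1:149832407-149832706, plus strand (H4C14) and chr6:27823842-27824141, plus strand (H4C11).
H2BC21: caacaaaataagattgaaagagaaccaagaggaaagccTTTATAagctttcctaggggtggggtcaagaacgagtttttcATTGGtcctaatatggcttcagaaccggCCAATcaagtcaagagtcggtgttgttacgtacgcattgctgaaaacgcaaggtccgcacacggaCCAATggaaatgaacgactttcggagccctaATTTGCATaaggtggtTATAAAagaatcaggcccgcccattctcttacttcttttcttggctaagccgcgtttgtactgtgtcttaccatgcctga
H1-3: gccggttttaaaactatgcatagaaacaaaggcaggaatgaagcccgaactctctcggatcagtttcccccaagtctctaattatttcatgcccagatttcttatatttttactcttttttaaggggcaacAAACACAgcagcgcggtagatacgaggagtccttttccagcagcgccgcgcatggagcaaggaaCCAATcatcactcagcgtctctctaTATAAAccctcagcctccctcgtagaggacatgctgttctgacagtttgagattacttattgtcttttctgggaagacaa
H4C5: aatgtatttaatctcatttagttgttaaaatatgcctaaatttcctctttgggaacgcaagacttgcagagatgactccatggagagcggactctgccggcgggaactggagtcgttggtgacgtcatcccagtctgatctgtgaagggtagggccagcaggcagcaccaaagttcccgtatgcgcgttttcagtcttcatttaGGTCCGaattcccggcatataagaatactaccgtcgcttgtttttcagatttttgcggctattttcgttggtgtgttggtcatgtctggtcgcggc
H2BC1: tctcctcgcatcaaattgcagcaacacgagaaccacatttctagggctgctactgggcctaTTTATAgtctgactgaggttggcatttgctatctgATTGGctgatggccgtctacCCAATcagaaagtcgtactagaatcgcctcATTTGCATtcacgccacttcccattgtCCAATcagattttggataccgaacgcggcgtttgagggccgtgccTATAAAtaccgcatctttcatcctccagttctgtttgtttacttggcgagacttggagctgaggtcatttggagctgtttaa
H4C14: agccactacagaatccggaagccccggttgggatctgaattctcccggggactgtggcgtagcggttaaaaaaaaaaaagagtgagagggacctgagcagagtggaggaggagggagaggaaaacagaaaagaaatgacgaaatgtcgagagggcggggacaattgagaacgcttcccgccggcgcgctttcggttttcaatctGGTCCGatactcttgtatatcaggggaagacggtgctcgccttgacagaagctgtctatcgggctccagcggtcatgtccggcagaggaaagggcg
H4C11: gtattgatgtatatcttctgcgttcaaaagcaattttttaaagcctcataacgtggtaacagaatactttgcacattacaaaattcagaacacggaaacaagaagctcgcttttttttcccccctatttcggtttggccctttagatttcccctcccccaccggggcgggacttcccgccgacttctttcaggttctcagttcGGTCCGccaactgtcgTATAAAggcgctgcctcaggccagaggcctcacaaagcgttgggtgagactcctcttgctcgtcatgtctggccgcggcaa

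Histone promoters held the TATA box, CCAAT and octamer letters more often than promoters at large. TATAAA, the letters of the TATA box, was in 42 of 63 members (66.7%, against 12.4% of 15813 genes), and CCAAT in 54 (85.7% against 42.1%). Matches were counted on either strand anywhere in the window, so not every TATAAA is a TATA box of that gene's start. The only TATAAA of H2BC4, H2BC6 and H2AC8 began at -220, -189 and -206 bases from the start. The octamer, bound by POU2F1, was in 14 of 18 H2B and 11 of 16 H2A promoters and in 26 members in all (41.3% against 2.22%). No octamer or H1 box match overlapped a match of another motif, and 3 of 16 GGTCCG matches and 4 of 162 CCAAT matches did. The H1 box was in 6 of 6 H1 promoters and 9 members (14.3% against 5.84%). GGTCCG, chosen after the H4 sequences were seen, was in 11 of 12 H4 promoters, starting 44 to 47 bases before the start, and in 14 of all 63 members (22.2%, against 18% of all genes). The cAMP response element TGACGTCA was in 9 members (14.3% against 3.0%), the AP-1 letters TGAGTCA in 0 (5.27%), and the E2F letters TTTCCCGC or TTTGGCGC in 1 (3.71%). Member windows were also poorer in G and C, with a median GC share of 43.0% against 62.3% and a median of 11 CpG against 21.

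The octamer and CCAAT were in a larger share of members with a vehicle peak than of those without one. The octamer was in 24 of 50 members with a peak (48.0%) and in 2 of 13 without (15.4%), and CCAAT in 46 of 50 and 8 of 13. TATAAA was in 32 of 50 (64.0%) and 10 of 13 (76.9%). The promoter of H2BC1, which had no peak, holds the octamer, TATAAA and CCAAT, as does that of H2BC21, which had the largest. Of 26 members with the octamer 24 had a vehicle peak, and of 37 without it 26 did. Since H2A and H2B partners share promoter bases and peaks, these are not independent genes. Over all members the contrast also mixes families, and the part of family in it was not tested. Among H2A and H2B genes, those without a peak were H2AC1 and H2BC1, which hold the octamer, and H2AC18 and H2AC19, which do not. H4 promoters held the octamer in 0 of 12 and CCAAT in 3 of 12, and 6 of those 12 genes had a vehicle peak. CCAAT was in every promoter of the other families. The members without a peak include the 8 near-identical ones, whose state is uncertain.

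The peaks of histone genes were narrower and ranked lower than those of genes at large. The 59 distinct member peaks of the vehicle list had a median width of 666 bp, against 1140 bp for all 13492 gene-end peaks, and a median area percentile of 62.2 against 84.1. Medians were 709 bp and 62.2 with EZH2i (all gene-end peaks 1065 bp and 78.8), 843 bp and 67.3 with CBPi (1179 bp and 81.1), and 678.5 bp and 60.7 with FSK (1070 bp and 81.4). At or above the 90th percentile of the vehicle list stood 1 member peak (1.69%), against 34.8% of gene-end peaks. Ranked by area per base, so that width does not enter, the vehicle medians were 45.8 and 75.5. With 1 value per gene, that of its largest or widest peak, the vehicle gap was smaller, at 1095 bp for members against 1262 bp for all genes and percentiles of 80.0 against 87.1. The histone genes are shorter than most, and both ends of a gene often fall near the same peak. The other protein-coding genes of up to 1 kb had 57 vehicle peaks, with a median of 1266 bp and percentile 83.9. The part of gene length in the width and rank gaps was not tested.

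**Figure D2:**
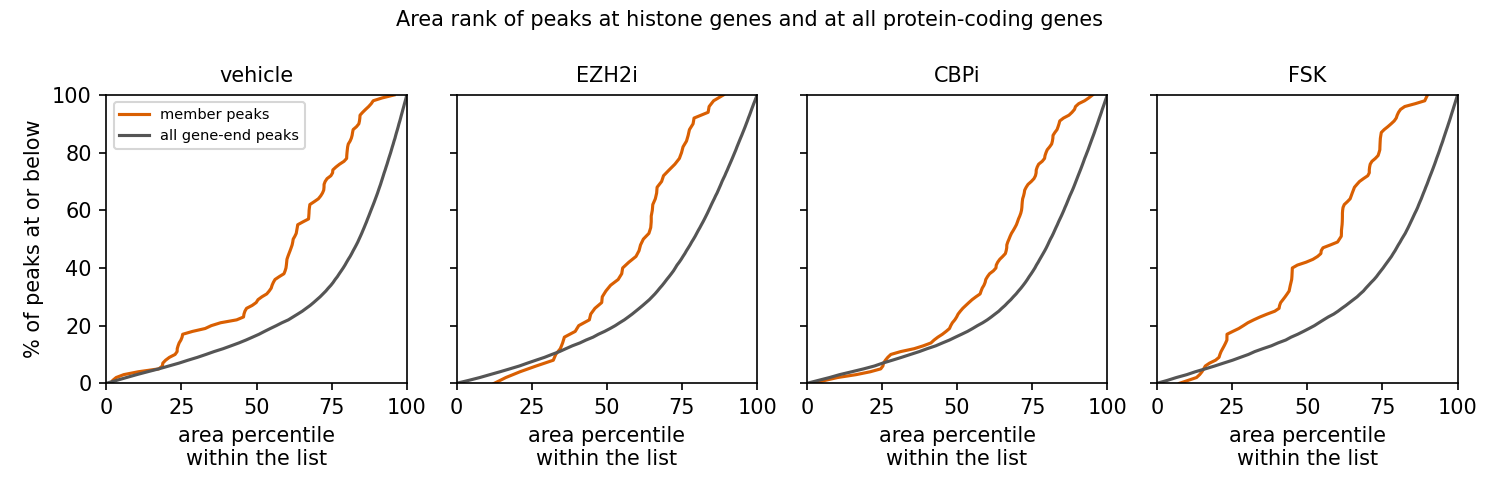
Cumulative share of peaks (vertical axis, percent) by area percentile within the list (horizontal axis) for the distinct peaks at histone genes (orange) and at all protein-coding genes (grey) in each of the 4 lists. The orange median lies between 60.7 and 67.3 and the grey median between 78.8 and 84.1.

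Among H1 genes, H1-2 had the largest vehicle area, with 1 peak of 1667 bp at percentile 84.4. In the CBPi list it was 1665 bp and 83.8. The EZH2i and FSK lists had 2 peaks in its place, the larger at percentile 66.6 and 62.0. H1-4 had a like value (percentile 84.3, 1688 bp), but that peak covers its 3′ end and extends beyond it, and also lies at the start of H2BC5, and its own start carried a peak of 586 bp at percentile 70.4. H1-5 had 1 peak over its start, at 53.4 in vehicle, 26.5 with EZH2i, 58.2 with CBPi and 21.1 with FSK.

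Among H2A and H2B genes the highest member value belonged to the H2BC21, H2AC20 and H2AC21 locus on chromosome 1. One vehicle peak of 2964 bp at percentile 95.8 reached all 3 genes, and the largest peak there stood at 85.5 with EZH2i, 93.0 with CBPi and 89.99 with FSK. The treated lists each had 2 peaks over that interval, of which the widest was 1619 bp, 2092 bp and 1859 bp. H2BC11 and H2AC11 came next and were nearly level across the lists, at 88.99 (vehicle), 88.8 (EZH2i), 87.4 (CBPi) and 89.03 (FSK). H2AC25 and H2BC26, the pair outside the main chromosome 1 cluster, were at 87.9, 83.7, 95.1 and 81.5, and their CBPi peak was 2434 bp wide against 1475 bp.

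Head-to-head pairs shared 1 peak. Members with a listed start formed 12 pairs with starts facing apart, 11 of H2A with H2B and 1 of H3C7 with H2BC9. Between the starts lay 194 to 979 bp (median 238 bp). H4C1, H4C3, H2AC12, H3C11 and H3C12 had no listed start and could not be paired, so H2AC12, which shares a 1173 bp vehicle peak with H2BC12, is left out. In every list 11 pairs had a peak, the exception being H2AC1 with H2BC1, and in 10 a single peak covered both starts. The summit lay between the starts in 8 pairs with vehicle and EZH2i and in 9 with CBPi and FSK. Which gene of a pair the open chromatin belongs to cannot be told apart.

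H3 and H4 peaks had lower vehicle medians, at percentiles 63.1 and 59.7, than H2A (77.4) and H2B (67.7) peaks. The largest vehicle area in both families was a peak of 1262 bp counted for both H3C1 and H4C1, at percentile 80.4. It stood at 76.5, 81.4 and 67.6 in the treated lists, in the order EZH2i, CBPi and FSK. That peak covers H4C1 and begins beyond the 3′ end of H3C1. The start of H3C1 carried a separate vehicle peak of 666 bp at percentile 59.7. H4C9 had the lowest H4 value in vehicle, 32.8, with 40.7, 60.7 and 20.5. Its FSK peak began beyond the 3′ end of the gene, with a summit 818 bp from the start. H4C5 stood at 54.8, 49.7, 66.0 and 23.3.

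Summits of member peaks lay close to the starts. Of 50 members with both a listed start and a vehicle peak, 49 had the start inside the peak (98.0%, against 88.9% of all genes). A summit lay within 250 bp of the start in 42 (84.0%, against 72.5% of all genes). The median summit was 104 bp upstream for H2B and 117 bp upstream for H2A, and 3 bp downstream for H3. With FSK the H3 genes differed: 4 of 9 had a summit within 250 bp, against 7 in vehicle and 8 each with EZH2i and CBPi. The summit nearest the start of H3C8 lay 34 bp downstream in vehicle and 314 bp downstream with FSK, and that of H3C10 13 bp and 324 bp. At H3C13 the peak over the start, with a summit 3 bp from it in vehicle, had no FSK peak over it. The nearest FSK summit, 1217 bp away, belongs to the other peak, which lies at the start of H2BC18. Counted within 1 kb of start sites alone, FSK therefore lost 3 members: H1-3, H2BC6 and H3C13. Over all genes the share within 250 bp was 71.7% with FSK. A summit is 1 base chosen by the peak caller, and with 9 genes and no replicate this is a description.

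**Figure D3:**
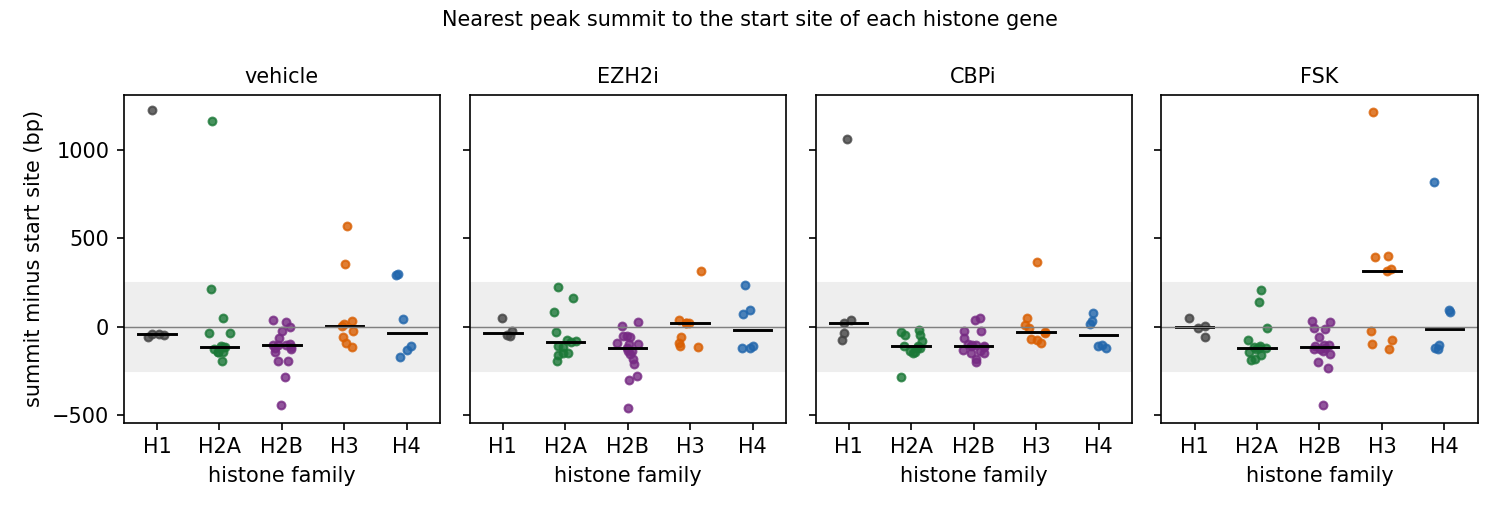
Distance from the start site to the nearest peak summit (vertical axis, bp, positive into the gene) for each histone gene with a listed start and a peak, by family (horizontal axis) in the 4 lists, with black lines at family medians and grey shading within 250 bp. The H3 median is 314 bp with FSK and 3 bp in vehicle.

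Vehicle peaks at histone genes were mostly kept, a kept peak being one with at least 1 bp under a peak of the treated list. EZH2i kept 51 of 59 (86.4%, against 91.1% of gene-end peaks), CBPi 58 of 59 (98.3% against 95.5%) and FSK 48 of 59 (81.4% against 91.4%). Gene-end peaks of the same deciles of vehicle area as the members' were kept at 83.6%, 91.7% and 84.2%. The peak not kept with CBPi was a 183 bp peak at H2BC15, percentile 2.58, which the EZH2i and FSK lists also lacked. The largest not kept were those of H1-1 with EZH2i (50.7) and H2BC6 with FSK (55.3). The CBPi list also held 5 member peaks with no vehicle peak under them (8.47% of its 59, against 3.75% of gene-end peaks), at H1-1, H4C2, H3C2 with H2AC4, H4C5 and H1-3. FSK had 1 of 48, at H1-1 (2.08%, against 3.11% of gene-end peaks), and EZH2i 0 of 51 (against 2.12%).

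With CBPi a larger share of kept peaks was at least 1.5 times as wide at histone genes than at gene ends at large. Of 58 kept member peaks 18 were at least 1.5 times as wide with CBPi (31.0%, exact 95% interval 19.5 to 44.5, against 9.33% of gene-end peaks), and 1 was at most 0.667 times as wide (1.72% against 3.81%). The share over gene-end peaks of the same area deciles was 17.3%. Of the 18, 14 were under the 70th percentile of vehicle area, as were 36 of the 58. Per gene, the widest peak differed little: its median ratio to vehicle was 1.027 (wider in 33 members, narrower in 21), against 1.004 for all genes. In 9 of the 18 the CBPi peak also overlapped another vehicle peak, so that neighbouring peaks had run together. Such a CBPi peak could be counted for more than 1 vehicle peak, as at H2AC25 with H2BC26, at H4C9 and at H2BC12 with H2AC12. The 18 are thus not independent, although the interval treats them so. The H4C9 peak went from 532 to 1032 bp, where 1 CBPi peak took the place of 2, and the H1-1 peak beyond the 3′ end from 465 to 863 bp. The H1-3 peak over the start went from 408 to 585 bp, 1.43 times as wide, and the CBPi list had a separate 771 bp peak on its 3′ side with no vehicle peak under it.

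In the other lists the shares of wider peaks were near or below those of the same area deciles. With EZH2i 5 of 51 were at least 1.5 times as wide (9.8% against 4.82%, 9.51% in the same area deciles) and 6 at most 0.667 times (11.8% against 10.4%, 13.9% in the same deciles). With FSK 3 of 48 were wider by that factor (6.25% against 5.07%, 9.4% in the same area deciles) and 8 narrower (16.7% against 10.3%, 14.4% in the same deciles). H1-2 had the smallest width ratio with EZH2i (0.509) and with FSK (0.487), where 2 peaks took the place of 1. The next smallest ratios with FSK were those of H2AC4 (1195 to 682 bp) and H2BC13 (1338 to 806 bp).

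**Figure D4:**
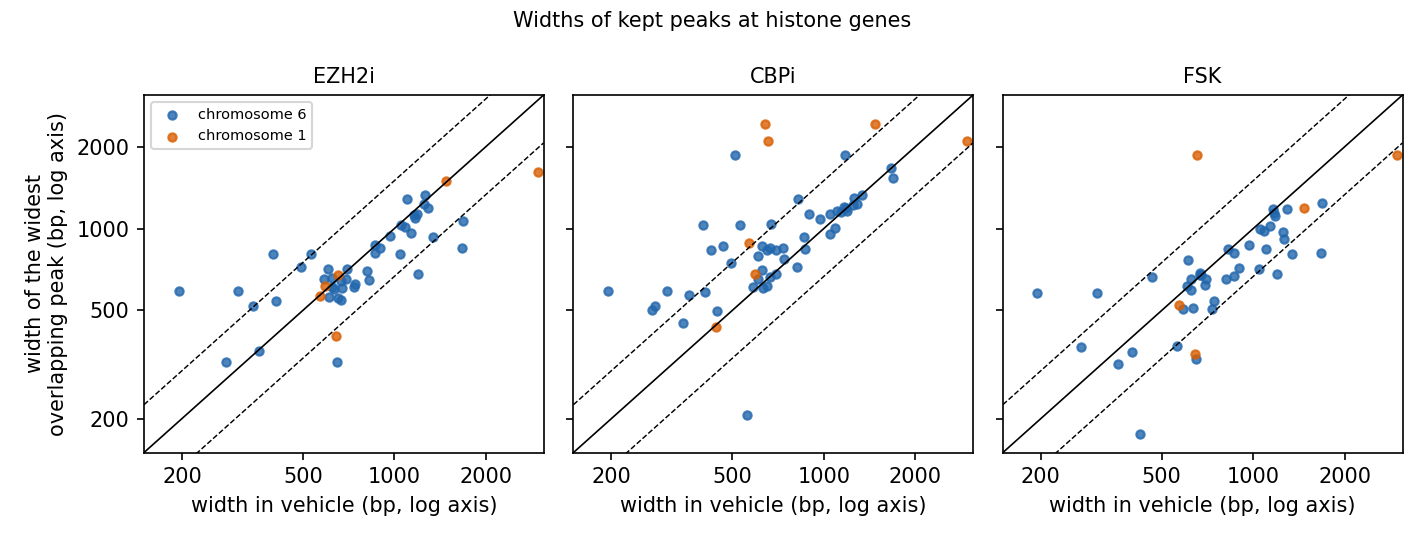
Width of the widest overlapping treated peak (vertical axis, bp, log scale) against width in vehicle (horizontal axis, bp, log scale) for kept peaks at histone genes on chromosome 6 (blue) and chromosome 1 (orange), with the solid line at equal width and dashes at 1.5 times wider and narrower. With CBPi 18 of 58 points lie on or above the upper dashes, with EZH2i 5 of 51 and with FSK 3 of 48.

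The area rank of member peaks relative to vehicle differed by treatment. Per gene, taking its largest peak, the median difference from vehicle was -5.81 percentile points with EZH2i (lower in 50 of 53 members, 94.3%, against 91.5% of all genes with a median of -4.62). With CBPi it was 0.464 (lower in 26 of 54, 48.1%, against 70.8% and -1.49). With FSK it was -7.46 (lower in 50 of 52, 96.2%, against 81.2% and -2.17). The lists differ in length and a longer list has more small peaks below a given one, so the ranks were also taken with every list shortened to its 41086 peaks of largest area. The medians were then 3.48 with EZH2i (all genes 0.127), 7.81 with CBPi (0.954) and -5.51 with FSK (-0.394). The lower rank with EZH2i thus turned to a higher one, while most members stayed lower with FSK. Members lower than in vehicle were then 13 of 52 with EZH2i (25.0%, against 47.3% of all genes), 5 of 53 with CBPi (9.43% against 39.1%) and 45 of 52 with FSK (86.5% against 57.9%). Members started from a lower vehicle rank than all genes (median of the largest peak 80.0 against 87.1). Rank differences were not set against genes of the same starting rank, so the part of starting rank in them was not tested.

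H4 genes had the highest family median with CBPi: all 8 with a peak were higher than in vehicle, by a median of 5.71 points (18.3 with lists of equal length). H4C9 stood 27.9 points higher, H4C6 13.3 and H4C5 11.2, and among other families H1-3 stood 22.02 points higher. The lowest CBPi differences were -7.02, for the peak of H3C2 and H2AC4, and -3.04, for that of H3C4, H2AC7 and H2BC7. With lists of equal length they were -0.44 and 3.25, so the direction of the second turned, and the lowest value was then -1.76, for the peak of H2BC21, H2AC20 and H2AC21.

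With FSK the H1 family median was -25.4 points in 4 genes (-23.8 with lists of equal length), those of H1-1 and H1-4 coming from peaks at or beyond the 3′ end. The H3 median was -12.3 in 10 genes and the H4 median -11.4 in 8. With lists of equal length the H3 median was -9.62 (lower in 9 of 10) and the H4 median -2.43 (lower in 5 and higher in 3). The difference was -32.3 points at H1-5, -31.5 at H4C5, -28.4 at H1-1 and -25.6 at H2BC18, whose peak H3C13 shares. The same differences with lists of equal length were -28.9, -28.3, -23.5 and -22.4. In the shortened FSK list H1-5, H4C5 and H1-1 stood at percentiles 1.89, 4.59 and 3.28, near its floor. H2BC11 with H2AC11 was level, at 0.04 points.

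With EZH2i the lowest members were H1-5 (-26.9 points), H2BC6 (-22.3), H2AC16 (-20.6) and H1-2 (-17.9). With lists of equal length these were -4.35, -0.63, -1.28 and -10.3, so that most of the first 3 differences went with list length. H1-3 (10.4), H4C9 (7.84) and H3C8 (1.7) stood higher with EZH2i than in vehicle. With lists of equal length H4C9 was 40.4 and H3C8 19.4 points higher. The H4C9 peak then stood at percentile 0.219 in vehicle, near the floor of the shortened list. H1-3 had no vehicle peak left to compare in lists of equal length. Most other members stood higher too by that measure.

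**Figure D5:**
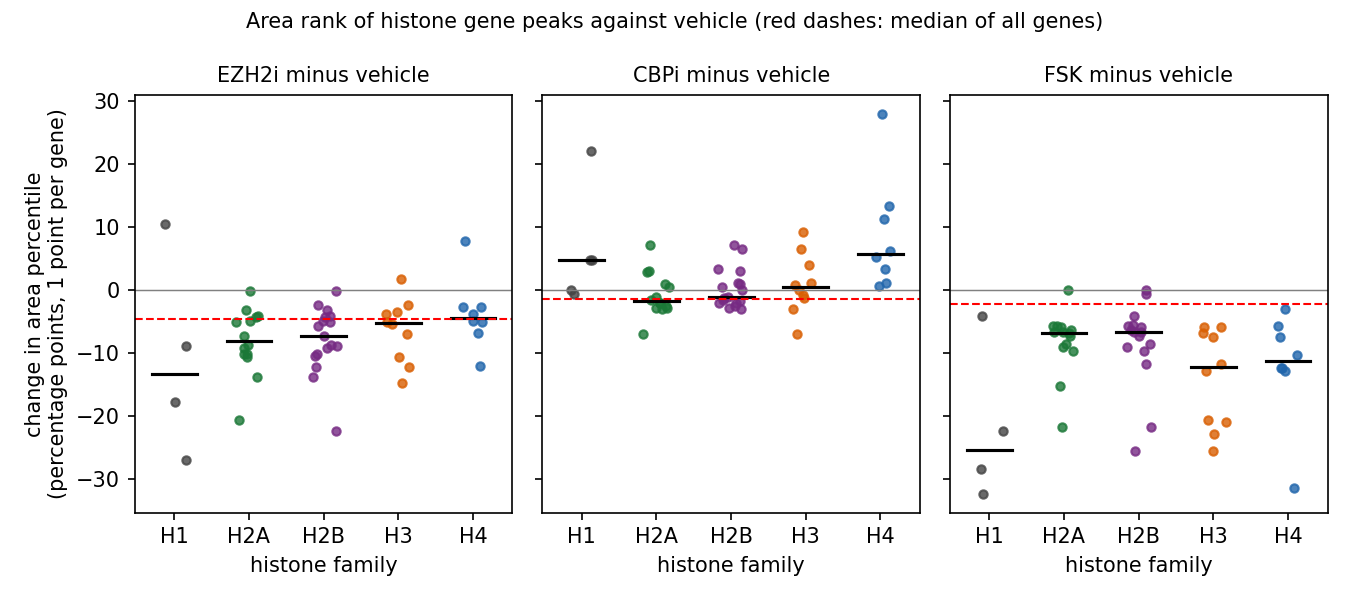
Difference in area percentile between each treated list and vehicle (vertical axis, percentage points, lists as deposited) for each histone gene with a peak in both, by family (horizontal axis), with black lines at family medians and red dashes at the median of all genes. The H4 points are above 0 with CBPi and the H1 points at or below -4.2 with FSK.

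Chromosome 1 and chromosome 6 peaks were alike in width and rank in the vehicle list, with medians of 642 and 669 bp and percentiles of 61.4 and 62.7. With CBPi the 6 chromosome 1 peaks had a median of 1277 bp and percentile 78.5, against 835 bp and 66.6 for 53 on chromosome 6. With FSK the medians were 1080 bp and 70.6 for 5 peaks against 675 bp and 60.0 for 43. When the H2AC25 and H2BC26 pair was left out, the CBPi difference, chromosome 6 minus chromosome 1, went from -442 to -47 bp and from -11.9 to -0.702 points, so it rested on the 1 CBPi peak of that pair.

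Genes around the histone system kept their peaks. All 11 replacement histone genes, all 13 genes for histone transcription and message processing and all 8 chaperone genes examined had a peak in every list. Of all protein-coding genes 67.6% had a vehicle peak, and of these 4.6% lost it with EZH2i, 2.35% with CBPi and 4.94% with FSK, so keeping a peak is common. Their median best percentiles in vehicle were 89.6, 85.0 and 86.6, against 80.0 for members and 87.1 for all genes. NPAT stood at 96.9 (vehicle), 95.6 (EZH2i), 96.3 (CBPi) and 93.6 (FSK), and SLBP at 96.5, 96.3, 97.4 and 96.7. H2AJ, a replacement H2A gene, was at 66.8, 14.2, 49.5 and 52.7, and H1-10, a replication-independent H1 gene, at 89.6, 88.2, 94.3 and 63.1. These ranks are from the lists as deposited, which differ in length, and were not taken with lists of equal length.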

How the data were processed

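The data were 4 narrowPeak lists, 1 per treatment group of 2 ATAC-seq libraries, on hg38. Bowtie2, Genrich and deepTools 2.0 are named without roles or settings, per the submitters' processing notes. The sources used here do not say by what rule a group's pair of libraries became 1 list, if read ends were shifted for Tn5, what was done with multiply aligned reads, or which threshold defined a peak. The authors deposited a signal for each peak (area under the peak), a −log10 of the summit p, a score (area per base, capped) and the distance from peak start to summit. The score was not used. Depth is unknown, so no interval for a level could be given, and arms of 2 libraries could not be compared with a test.

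Genes came from a RefSeq table of GRCh38.p14 (the same coordinates as hg38) on chromosomes 1 to 22 and X. Peaks overlapping the window of 1 kb around either gene end were counted with Python 3.11.15, pandas 2.3.3 and numpy 2.4.6, and plots were drawn with matplotlib 3.10.9. Area percentiles were taken within each list. Start sites came from the RefSeq promoter table, the first listed window setting the start and all listed windows being used for motifs and for summit distances. Motifs were matched on both strands. Members at least 95.0% alike were found by comparing windows at shifts of up to 20 bases. Clusters join genes less than 200 kb apart. The counting of presence, kept peaks and widths was tested on simulated peaks. No protein sequences were used.

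Named genes were those with no peak, those differing in presence, the 4 extremes in vehicle area and width, and per treatment the 4 largest differences in rank and 3 in width, with the largest of each family. Others named, among them H3C10, H3C13, H2AC25 and H2BC26, were chosen after their values were seen. The members and gene lists were chosen with earlier results of these data known. Alternatives were windows of 500 bp and 2 kb, start sites only, lists of equal length, area of at least 400, a kept peak with 50% covered, other ranks, 1 value per gene, and subsets of chromosome 1.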

Additional observations from a re-analysis of the deposited data

How the results depend on the processing

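Each group was 1 list, so no replicate was left out, and depth is unknown. No paired analysis was possible because each group is 1 peak list, and the lists carry no replicate numbers. Of 172 values recomputed under 12 alternatives, 120 stayed within the 95% interval of the deposited-list value (or within 1.5 times, for counts), 47 moved and 5 turned direction. The alternatives for rank differences, and some for lost and wider peaks, were chosen after seeing the data. The cause of each shift was not tested unless it follows from the alternative's construction.

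Without the 6 duplicated members of chromosome 1, the chromosome 6 minus chromosome 1 difference in presence turned to -14.55 (vehicle), -16.36 (EZH2i), -14.55 (CBPi) and -18.18 percentage points (FSK), which follows from construction, since these 6 are all of that chromosome's members without a peak. With lists of equal length the median rank difference turned to 3.48 with EZH2i and was 7.81 with CBPi and -5.51 with FSK, members lower than in vehicle were 25.0%, 9.43% and 86.5%, gained members were 1 (EZH2i) and 1 (CBPi), lost members with FSK were 1, and kept peaks were 95.8% (EZH2i) and 100.0% (CBPi). Ranked by area per base, the median difference was 7.21 with CBPi and -14.12 with FSK, with 58.5% (EZH2i) and 25.9% (CBPi) of members lower. Ranked by summit −log10 p, it was 4.45 and -10.73, with 66.0% and 25.9% lower.

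With area of at least 400, gained members were 2 (EZH2i) and 2 (CBPi), lost members 3 (EZH2i) and 6 (FSK), and kept peaks 100.0% (CBPi). That cut was the same in every list, although areas cannot be compared between lists. A window of 500 bp gave 4 lost with FSK and 100.0% kept with CBPi. By start site only, 1 member was gained with CBPi and 1 with FSK, and 0 were lost with EZH2i.

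Median area percentiles, in the order vehicle, EZH2i, CBPi and FSK, were 79.99, 70.73, 76.98 and 69.09 with 1 value per gene, 23.04, 27.18, 28.4 and 25.38 ranked among gene-end peaks only, and 45.79, 47.8, 57.43 and 30.83 by area per base. By summit −log10 p they were 50.16 (EZH2i), 58.87 (CBPi) and 33.62 (FSK). Median widths with 1 value per gene were 1095, 962, 1149 and 890 bp.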
